A study of Saccharomyces cerevisiae with 23 samples.

Results

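The cytosolic Hsp70 chaperones of budding yeast (Saccharomyces cerevisiae) and the proteins that drive their cycle were followed as 9 genes, chosen by name from the 6596 genes of the deposited count table. They are SSA1 (YAL005C), SSA2 (YLL024C), SSA3 (YBL075C) and SSA4 (YER103W), the 4 Hsp70s of the Ssa class; SSE1 (YPL106C) and SSE2 (YBR169C), the Hsp110 relatives; the J proteins YDJ1 (YNL064C) and SIS1 (YNL007C); and the nucleotide exchange factor FES1 (YBR101C). All 9 were among the 6111 genes that passed the filter on low counts, with at least 366 counts in every library. On the R64 build each is 1 coding exon with no intron in the annotation, and the genes lie on chromosomes I (SSA1), II (SSA3, SSE2 and FES1), V (SSA4), XII (SSA2), XIV (YDJ1 and SIS1) and XVI (SSE1).

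Hsp70 binds short hydrophobic stretches of unfolded proteins and lets them go in a cycle driven by ATP. J proteins deliver the client and trigger ATP hydrolysis, which closes the chaperone on it, and exchange factors such as the Hsp110s and Fes1 remove ADP so that the client is released. In yeast SSA1 and SSA2 are expressed during normal growth, while SSA3 and SSA4 are known as stress-induced copies. SSE1 is likewise the main growth-phase Hsp110 and SSE2 the stress-linked one. Many of these genes are targets of the heat shock factor Hsf1, and SSA3, SSA4 and SSE2 are also known to respond to the general stress factors Msn2 and Msn4, which act when growth slows.

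RNA was measured by sequencing in 23 libraries in 8 groups. Tetrad dissection gave the aneuploid populations T1 and T2 and 1 euploid population, and a-selection, a route that the labels do not describe further, gave A1, A2 and A3, also aneuploid, and another euploid population. Each of these 7 had 3 libraries, and a euploid haploid control had 2. Cells of all groups were given the strain name BY4741, a laboratory strain, received no treatment, and grew overnight in rich YPD medium before a refresh of 4 h at 23 °C. The series describes the aneuploid populations as mixtures of karyotypes, so each value is a mean over unlike cells, and in bulk RNA fewer cells of a type and less RNA per cell cannot be told apart. Each route has 1 euploid population, and nothing in the labels says that replicates came from separate cultures, so p-values reflect variation among libraries that could be purely technical.

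Libraries held 12719710 to 19327344 counts, and the common biological coefficient of variation between replicates was 5.05%. Levels below are TMM-scaled CPM, counts set to a common library size, and changes are log2 fold changes with their standard errors from edgeR's quasi-likelihood fit over all 8 groups. The p-values of edgeR were adjusted by the Benjamini-Hochberg method across the 6111 genes, and a change counts as called under 0.05. Most genes of these populations differed, so counts of called genes are read against the share of all tested genes called in the same comparison. Auxotrophic marker genes differed between groups that carry the same strain name. URA3, a uracil synthesis gene, had a mean of 181 CPM for T1, 141 for T2 and 656 for A1 but no more than 0.244 CPM in any other group. LEU2, which serves leucine synthesis, lay between 18.6 and 376 CPM in the 7 populations and at 0.0729 CPM in the haploid control. MET17, a methionine synthesis gene deleted in BY4741, had 107 CPM in T1, 60.8 in T2, 38.3 to 108 CPM in the a-selection aneuploids, 12.0 and 27.8 in the tetrad and a-selection euploids and 317 in the haploid control. MF(ALPHA)1, the pheromone gene of alpha cells, had 399 CPM in T1 and 323 in T2, against 2216 in the euploid tetrad population. Its mean did not exceed 1.65 CPM elsewhere. Genes of a cells were also highest in the euploid tetrad population. STE2, BAR1, MFA2 and MFA1 had 1393, 1399, 944 and 341 CPM there. They had 628, 786, 312 and 240 CPM in T1 and 650, 777, 350 and 151 in T2. The part of the strain markers and of mating type in the results was not tested.

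The DNA ahead of the genes is shown because it holds the sites that these stress factors are known to bind. Stretches of 120 bases are given 5′ to 3′ on the strand of the gene, read from the R64 reference sequence of RefSeq and counted from the annotated gene start, which in this annotation is the start codon. Capitals mark complete matches, on either strand, to the heat shock element dimers TTCNNGAA and GAANNTTC, to the heat shock element trimer, in which 3 such units alternate with NN between them so that it contains 2 overlapping dimers, and to the stress response element AGGGG. The first 2 stretches hold a trimer between 250 and 131 bases before the start, and the next 2 hold their trimers farther ahead. A match that runs past the end of a stretch is not marked in full. A further trimer of SSA1, from -261 to -249 relative to the gene start, is cut in this way.
SSA2, chrXII:97616-97735, minus strand: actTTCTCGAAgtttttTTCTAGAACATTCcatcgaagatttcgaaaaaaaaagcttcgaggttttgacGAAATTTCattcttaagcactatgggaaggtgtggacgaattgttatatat
FES1, chrII:444824-444943, minus strand: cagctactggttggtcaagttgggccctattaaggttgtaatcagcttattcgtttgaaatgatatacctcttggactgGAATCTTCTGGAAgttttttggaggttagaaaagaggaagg
SSA1, chrI:141682-141801, minus strand: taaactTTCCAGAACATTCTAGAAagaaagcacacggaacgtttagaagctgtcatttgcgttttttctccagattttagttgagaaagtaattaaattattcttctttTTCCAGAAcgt
SIS1, chrXIV:619816-619935, minus strand: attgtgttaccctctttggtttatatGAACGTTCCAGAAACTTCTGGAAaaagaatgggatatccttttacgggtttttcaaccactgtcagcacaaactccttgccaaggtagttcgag

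The stress-linked SSE2 and SSA4 carried a stress response element in the nearer window, beside a single dimer in SSE2. SSA4 also had a dimer from -253 to -246 relative to the gene start. It crosses the edge of the stretch shown and is not in capitals there. YDJ1 held 1 dimer in the farther window.
SSE2, chrII:576127-576246, minus strand: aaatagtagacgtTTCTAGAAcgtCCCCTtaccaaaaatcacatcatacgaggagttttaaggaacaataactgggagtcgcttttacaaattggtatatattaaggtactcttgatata
SSA4, chrV:364339-364458, plus strand: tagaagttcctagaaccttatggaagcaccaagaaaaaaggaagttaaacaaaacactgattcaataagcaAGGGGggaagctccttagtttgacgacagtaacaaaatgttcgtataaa
YDJ1, chrXIV:507348-507467, minus strand: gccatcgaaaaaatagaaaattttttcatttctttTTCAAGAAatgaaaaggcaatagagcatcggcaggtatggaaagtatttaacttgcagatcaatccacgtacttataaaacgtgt

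A trimer was found in the 500 bases before the start of 4 of the 8 genes searched (SSA1, SSA2, SIS1 and FES1), against 1.48% of the 6000 protein-coding genes read the same way. A dimer was found in 7 of the 8, SSA3 being the exception, against 35.2% of all. The element AGGGG was found in 3 (SSA1, SSA4 and SSE2), against 34.1% of all. In the shorter window of 250 bases before to 50 after the start, the trimer was in 2 of the 8 (SSA2 and FES1), against 0.783% of 6001 genes. A dimer was in 4 of the 8 there, against 22.6% of all, and AGGGG was in 4, against 21.6%. The 500-base window was added after the data were seen. These are matches of letters and say nothing on binding.

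**Figure D1:**
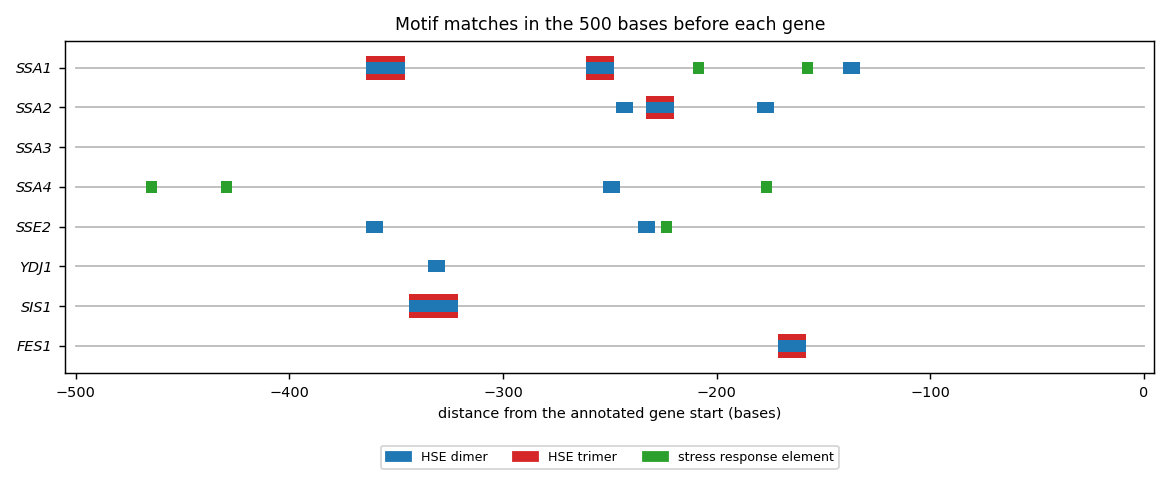
Motif matches in the 500 bases before each of the 8 genes searched, a window added after the data were seen. The horizontal axis is the distance in bases from the annotated gene start. Blue bars are heat shock element (HSE) dimers, red bars trimers, behind the dimers they contain, and green bars AGGGG. The 4 genes with a red bar are SSA1, SSA2, SIS1 and FES1, and no match was found for SSA3.

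The SSA genes are near copies of each other to different degrees, which bears on how their reads could be assigned. The first 120 coding bases are shown, with capitals marking bases that differ from SSA1.
SSA1: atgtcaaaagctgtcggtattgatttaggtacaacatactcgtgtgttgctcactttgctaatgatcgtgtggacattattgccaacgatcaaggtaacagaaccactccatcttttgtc
SSA2: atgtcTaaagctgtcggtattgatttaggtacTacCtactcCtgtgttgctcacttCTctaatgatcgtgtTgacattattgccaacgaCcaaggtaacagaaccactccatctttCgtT
SSA3: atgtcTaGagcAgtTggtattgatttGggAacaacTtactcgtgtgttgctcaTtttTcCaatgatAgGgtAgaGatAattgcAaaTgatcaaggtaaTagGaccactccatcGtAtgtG
SSA4: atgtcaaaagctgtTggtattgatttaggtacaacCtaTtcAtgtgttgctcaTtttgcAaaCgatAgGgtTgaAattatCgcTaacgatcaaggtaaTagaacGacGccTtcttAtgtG

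In this stretch SSA2 differed from SSA1 at 10 bases, SSA3 at 22 and SSA4 at 19. Over whole coding sequences SSA1 and SSA2 were 96.4% identical, SSA3 and SSA4 76.7%, and SSE1 and SSE2 72.4%. The longest run that SSA1 and SSA2 share without a difference was 383 bases. Of all 50-base windows, 57.9% in SSA1 and 58.2% in SSA2 occur exactly in the other gene, while none of the other 7 genes had a 50-base window found elsewhere in the genome. How counting treated reads that match both genes is not stated in the sources used here, so the values of SSA1 and SSA2 are uncertain as a pair.

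Per coding length, the rank of the 9 genes differed widely between groups. In the haploid control SSA2 led with 1926 ± 34.6 CPM per kb (SD, n = 2), SSA1 averaged 1296, and YDJ1 (948), SSE1 (942) and SIS1 (921) stood close together below them, ahead of FES1 (410.2). The stress-linked copies were the lowest there, with 49.3 CPM per kb for SSE2, 34.3 for SSA4 and 21.6 for SSA3. In the euploid tetrad population SSA1 led with 2034 ± 56.4 CPM per kb (SD, n = 3), and SSE2 came next with 404, followed by SIS1 263, SSE1 217, SSA2 139, FES1 125, SSA4 125, SSA3 88.0 and YDJ1 only 25.7. Between the groups with the highest and the lowest mean, the level of YDJ1 differed 37.0-fold, SSA4 14.96-fold, SSA2 13.8-fold, SSE2 8.20-fold, SSE1 7.24-fold, FES1 4.41-fold, SSA3 4.07-fold, SIS1 3.50-fold and SSA1 1.81-fold.

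**Figure D2:**
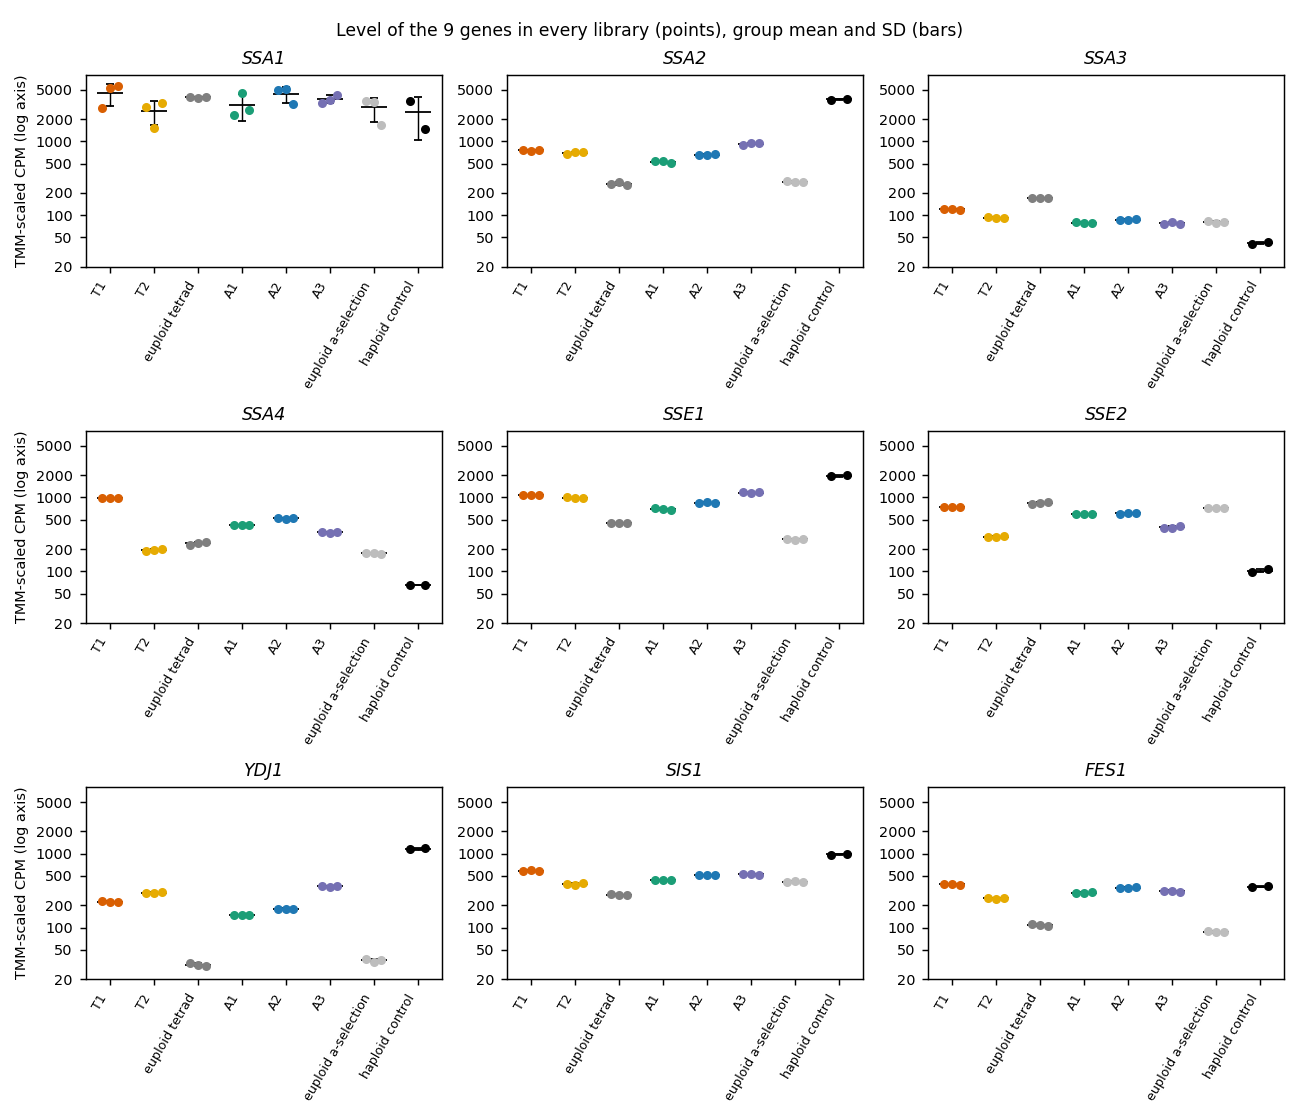
TMM-scaled CPM on a log axis for each of the 9 genes. Points are libraries, and the black bars are the mean and SD of a group of 3 libraries (2 for the haploid control). YDJ1 lies between 30.3 and 37.7 CPM in both euploid populations and between 146 and 365 CPM in the 5 aneuploid ones, and the spread between replicates is wide only for SSA1.

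Against the euploid population of the same route, 6 of the 9 genes were higher and 2 lower in the tetrad aneuploids (the mean of T1 and T2), and 6 were higher and 1 lower in the a-selection aneuploids (the mean of A1, A2 and A3). SSA2, SSA4, SSE1, YDJ1, SIS1 and FES1 were the higher genes in both routes and SSE2 was lower in both. SSA3 was lower in the tetrad route, and it was not called in the a-selection route (0.0062 ± 0.0245, adjusted p = 0.873 by edgeR). SSA1 was called in neither route. Of all 6111 tested genes, 84.7% were called in the tetrad comparison (39.9% higher and 44.8% lower) and 78.8% in the a-selection comparison (39.8% higher and 39% lower), so a count of called genes does not by itself set the 9 apart. Their median log2 change was 0.87 in the tetrad route and 1.27 in the a-selection route, beside -0.046 and 0.00023 over all tested genes. The tetrad median is the value of SSA4, and the median of the 9 was 1.26 in T1 and 0.47 in T2.

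Each aneuploid population was then set against its euploid population. In T1, 6 genes were higher and 2 lower (all genes 81.1% called, 38.2% higher, 43% lower), and in T2 5 were higher and 3 lower (84.9%, 40.5% and 44.4%). In A1 6 were higher and 1 lower (72.4%, 36.6% and 35.7%), in A2 7 and 1 (72.2%, 36.4% and 35.9%), and in A3 6 and 1 (79.9%, 40.2% and 39.7%). SSA2, SSE1, YDJ1, SIS1 and FES1 were higher in each of the 5 populations, and SSE2 was lower in each. SSA4 was higher in 4 and lower in T2. SSA3 was lower in T1 and T2 and higher in A2 (0.11 ± 0.0298, adjusted p = 0.00259 by edgeR).

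**Figure D3:**
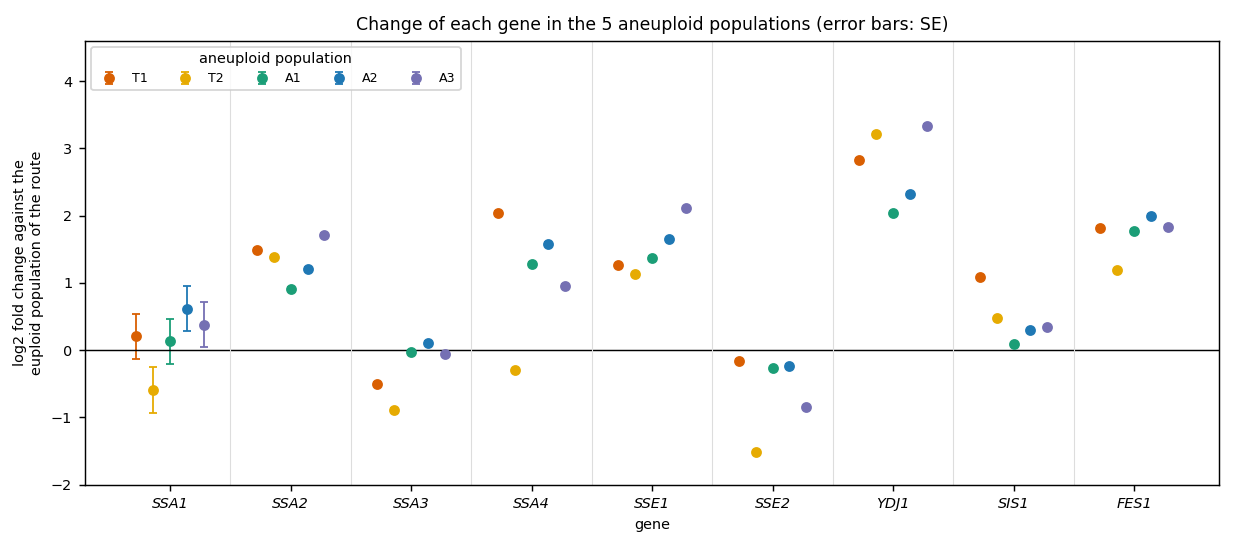
Log2 fold change of each gene in the aneuploid populations T1, T2, A1, A2 and A3 against the euploid population of their route, with standard errors, which are smaller than the symbols except for SSA1. YDJ1 lies highest, from 2.04 in A1 to 3.33 in A3. SSA4 is at 2.04 in T1 and at -0.30 in T2.

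SSA2, the growth-phase Hsp70 that is near-identical to SSA1, was higher in every aneuploid library than in every library of both euploid populations. It had 757, 746 and 755 CPM in T1 and 675, 709 and 707 in T2, against 267, 279 and 257 in the euploid tetrad population. In the other route it had 542, 537 and 515 CPM in A1, 644, 648 and 673 in A2 and 902, 935 and 939 in A3, against 291, 282 and 277 in the euploid a-selection population. The groups did not overlap within either route, and the log2 change was 1.44 ± 0.0269 (adjusted p = 3.27e-23) in the tetrad route and 1.28 ± 0.0254 (adjusted p = 3.43e-22) in the a-selection route by edgeR. The haploid control, at 3650.1 and 3744 CPM, lay far above all populations. Because of the shared sequence the sum of SSA1 and SSA2 was fitted as 1 feature. It changed by -0.0060 ± 0.221 in the tetrad route (adjusted p = 0.980 by edgeR). In the a-selection route it changed by 0.49 ± 0.215 (adjusted p = 0.0429 by edgeR). SSA1 made up most of this sum in the populations and varied widely between replicates. Its mean was 3924 CPM in the euploid tetrad population, and its SD was 1485 CPM in T1. The mean of SSA2 was 267 CPM in the euploid tetrad population and 753 in T1, a smaller difference than that SD. The sum therefore cannot show whether SSA2 itself rose.

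SSA4, the stress-induced Hsp70, set the tetrad populations apart. Libraries of T1 had 991, 982 and 993 CPM and those of T2 187, 197 and 201 CPM, against 228, 246 and 248 CPM in the euploid tetrad population. T1 lay 4.11-fold above the euploid level (2.04 ± 0.0272, adjusted p = 8.78e-26 by edgeR), while T2 was slightly below it (-0.30 ± 0.0276, adjusted p = 5.67e-10, though 0.082 with no scaling factors, which moved the median of all genes of the tetrad route by 0.28). The mean change of the tetrad route (0.87 ± 0.0242) therefore describes neither population, and without T1 it was -0.31.
In the a-selection route SSA4 had 426, 429.6 and 419.5 CPM in A1, 532, 516 and 520.2 in A2 and 338, 332 and 344 in A3, against 177, 175 and 172 in the euploid population. All 3 populations lay above it without overlap, with log2 changes of 1.28 ± 0.0272 (A1), 1.58 ± 0.0272 (A2) and 0.95 ± 0.0273 (A3) (adjusted p = 8.90e-23 for their mean by edgeR). The haploid control was lowest with 66.2 and 66.0 CPM.

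SSA3, the other stress-linked Hsp70, had the lowest level per coding length of the Ssa class in every group. It had 122, 121 and 119 CPM in T1 and 95.6, 92.5 and 90.8 in T2, against 169.6, 172 and 173 in the euploid tetrad population, so both aneuploid populations lay below the euploid one (-0.51 ± 0.0284 and -0.88 ± 0.029, adjusted p = 6.74e-18 for their mean by edgeR). It had 79.9, 79.2 and 78.1 CPM in A1, 86.4, 87.2 and 87.7 in A2 and 76.8, 80.1 and 76.2 in A3, against 83.6, 78.9 and 79.9 in the euploid a-selection population. The libraries of A1 and A3 overlapped with that population, and only those of A2 lay above it. In the order of the 8 groups, neither euploid a-selection and A1 (adjusted p = 0.381) nor A1 and A3 (adjusted p = 0.455 by edgeR, in a pair where 69.7% of all genes were called) were told apart.

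SSA1 had the highest CPM of the 9 genes in every population except the haploid control, where SSA2 averaged more, and it could not be compared between groups with any precision. Libraries of T1 had 2831, 5183 and 5578 CPM and those of T2 2939.6, 1524 and 3339, against 3926, 3814 and 4032 in the euploid tetrad population. It had 2241, 4565 and 2617 CPM in A1, 4986, 5028 and 3183 in A2, 3314, 3646 and 4225 in A3 and 3532, 3393 and 1682 in the euploid a-selection population. The haploid libraries had 3541 and 1458 CPM. Replicates of 1 group lay far apart, except in the euploid tetrad population, and in the order of the group means every pair of neighbours overlapped. The libraries of T2 did all lie below those of the euploid tetrad population. Its log2 change was -0.19 ± 0.287 in the tetrad route and 0.37 ± 0.279 in the a-selection route (adjusted p = 0.534 and 0.223 by edgeR).
The within-group SD of SSA1 was 0.503 on the log2 scale, the 21st highest of 5302 genes with an average log2 CPM of 3 or more, where the median gene had 0.0528 and the other 8 genes 0.0194 to 0.0408. YAL004W, an open reading frame on the opposite strand that shares 648 bp with SSA1, had between 4 and 105 counts per library and deviated from its group means in the same libraries (Pearson r = 0.967 over 23 libraries, as a description), while SSA2 did not (r = -0.11). Reads of SSA1 and of this overlapping frame cannot be told apart unless counting used strand, which those sources do not state. Of the 28 pairs of groups, in which 34.2% to 90.7% of all genes were called, SSA1 was called in 3 (T1 against T2, T1 against the haploid control and T2 against A2).

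**Figure D4:**
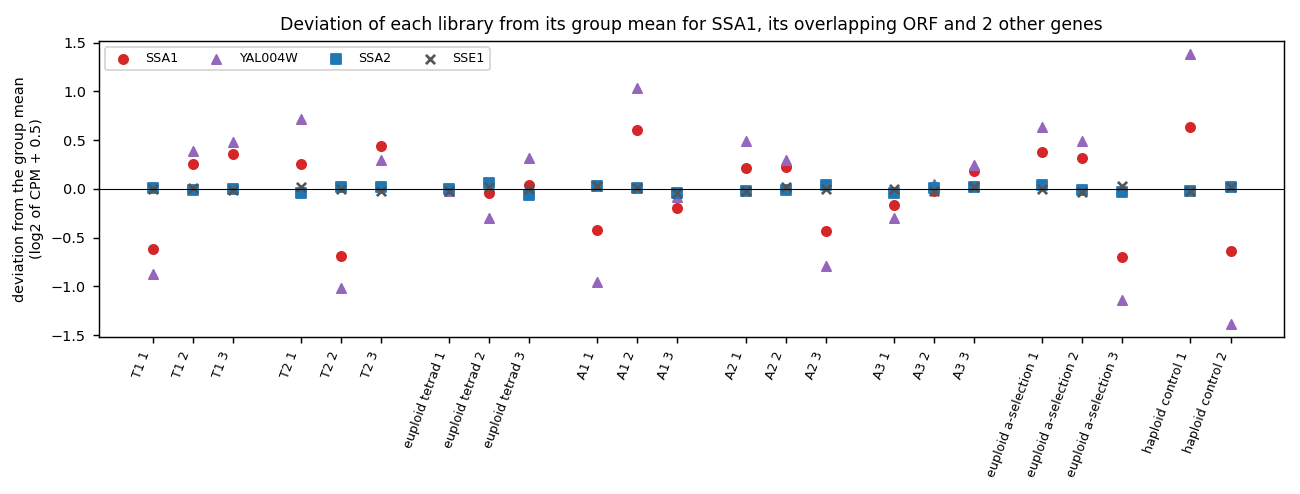
Deviation of each library from the mean of its group, on the log2 scale of CPM + 0.5, for SSA1 (circles), the overlapping frame YAL004W (triangles), SSA2 (squares) and SSE1 (crosses). SSA1 and YAL004W lie high and low in the same libraries, while SSA2 and SSE1 stay near 0 in all 23.

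SSE1, the main Hsp110 and an exchange factor for Ssa proteins, rose in both routes. It had 1082, 1093 and 1076 CPM in T1 and 999.8, 982 and 973 in T2, against 446, 457 and 451 in the euploid tetrad population. It had 715, 704 and 682 CPM in A1, 836, 857 and 848 in A2 and 1169, 1149.7 and 1182 in A3, against 271, 264 and 277 in the euploid a-selection population. No aneuploid library overlapped with a euploid one, and the changes were 1.195 ± 0.0199 in the tetrad route and 1.71 ± 0.0199 in the a-selection route (adjusted p = 3.56e-24 and 3.33e-26 by edgeR). The haploid control had 1928 and 1993 CPM, the highest of all groups.

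SSE2, its stress-linked paralogue, went the other way. It had 751, 753 and 753 CPM in T1 and 290.1, 292 and 297 in T2, against 819.9, 841 and 865 in the euploid tetrad population, and the drop was small in T1 (-0.16 ± 0.0245, and 0.11 with no scaling factors) and large in T2 (-1.52 ± 0.0255, adjusted p = 3.82e-24 by edgeR). It had 602, 591 and 589 CPM in A1, 593, 616 and 615 in A2 and 390.3, 391 and 409 in A3, against 726, 711 and 713 in the euploid a-selection population. The libraries of A1 and A2 overlapped and did not differ past the threshold (adjusted p = 0.339 by edgeR, in a pair where 34.2% of all genes were called), and those of A3 lay below both. The mean changes were -0.84 ± 0.0209 in the tetrad route and -0.45 ± 0.0197 in the a-selection route (adjusted p = 8.33e-21 and 8.02e-16). In the haploid control SSE2 had 98.8 and 106 CPM.

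As a share of the counts of both Hsp110 genes, SSE2 held 41.0 ± 0.181% in T1 and 22.9 ± 0.46% in T2, against 65.1 ± 0.553% in the euploid tetrad population (SD, n = 3 each). It held 45.9 ± 0.388% in A1, 41.8 ± 0.275% in A2 and 25.4 ± 0.339% in A3, against 72.6 ± 0.507% in the euploid population of that route, and 4.97 ± 0.136% in haploid cells (n = 2). Thus SSE2 made up most Hsp110 counts in both euploid populations and the smaller part in all 5 aneuploid ones. The 2 genes have the same coding length, and fitted as 1 summed feature they were higher in both routes (0.24 ± 0.0180 in the tetrad and 0.54 ± 0.0173 in the a-selection route, adjusted p = 1.15e-11 and 2.66e-18 by edgeR). The tetrad value rests on T1, where the sum was at 0.51, while in T2 it was at -0.017 ± 0.0206 and was not called (adjusted p = 0.451 by edgeR).
SSA4 as a share of SSA2, SSA3 and SSA4 (SSA1 was left out for its spread) was 53.1 ± 0.107% in T1 and 19.8 ± 0.3% in T2, against 35.4 ± 1.11% in the euploid tetrad population. It was 41.0 ± 0.4% in A1, 41.3 ± 0.754% in A2 and 25.2 ± 0.52% in A3, against 32.4 ± 0.34% in the euploid population of that route, and 1.74 ± 0.0362% in haploid cells. T1, A1 and A2 were thus above their euploid population and T2 and A3 below it. With SSA1 kept in the sum, SSA4 held 16.1 ± 4.3% in T1 and 5.74 ± 1.78% in T2, against 5.23 ± 0.236% in the euploid tetrad population, and 10.7 ± 2.74% in A1, 9.46 ± 1.9% in A2 and 6.7 ± 0.568% in A3, against 5.52 ± 1.95% in the euploid population of that route. The means of T2 and A3 then lay above it, so their direction depends on SSA1. SSA3 and SSA4 together held 18.1 ± 4.84% of all 4 Ssa genes in T1 and 8.48 ± 2.6% in T2, against 8.95 ± 0.292% in the euploid tetrad population, and 12.7 ± 3.27% in A1, 11.04 ± 2.24% in A2 and 8.24 ± 0.713% in A3, against 8.08 ± 2.87% in the euploid a-selection population. The Hsp110 share and the share without SSA1 were chosen after the data were seen, and all shares are given with no test.

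**Figure D5:**
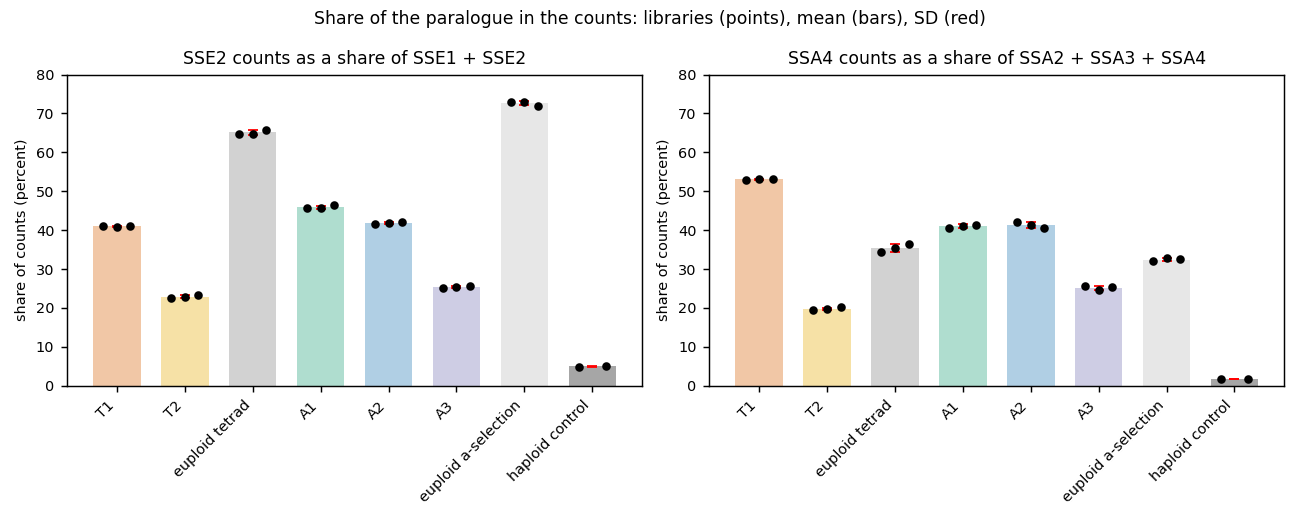
SSE2 counts as a percent of SSE1 and SSE2 (left), and SSA4 counts as a percent of SSA2, SSA3 and SSA4 (right). Points are libraries, bars group means and red lines the SD. On the left both euploid populations stand at 64.8% or more and the 5 aneuploid ones at 46.3% or less, and on the right T1 is highest and the haploid control lowest.

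YDJ1, the major J protein of the cytosol, changed most. It had 229.7, 221 and 222 CPM in T1 and 289.5, 292 and 299 in T2, against 33.3, 31.1 and 30.3 in the euploid tetrad population. It had 146, 148 and 149 CPM in A1, 178, 180.4 and 181 in A2 and 364, 358 and 365 in A3, against 37.7, 34.3 and 35.9 in the euploid a-selection population. No aneuploid library came near the euploid ones of its route. The changes were 3.02 ± 0.0304 in the tetrad route and 2.56 ± 0.028 in the a-selection route (adjusted p = 2.76e-28 and 1.22e-26 by edgeR). In the tetrad route 96.1% of all tested genes had a lower log2 change than YDJ1. The haploid control, at 1145 and 1188 CPM, was still higher than every population.

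SIS1, the essential J protein that acts in translation and in the handling of misfolded proteins, changed less. It had 590.1, 596 and 582 CPM in T1 and 385, 381 and 396 in T2, against 283, 274 and 279 in the euploid tetrad population (0.78 ± 0.0172 for the route, adjusted p = 8.77e-22 by edgeR). It had 440.3, 444 and 442 CPM in A1, 511, 515 and 508 in A2 and 533, 533 and 519 in A3, against 416, 422 and 410.5 in the euploid a-selection population. These a-selection libraries did not overlap with the euploid ones, but the change was small (0.24 ± 0.0156, adjusted p = 1.38e-12) and in A1 it was 0.088. The haploid control had 969 and 982 CPM.

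FES1, the exchange factor that acts on Ssa chaperones in the cytosol, rose by a similar amount in 4 of the 5 populations. It had 386, 393 and 375 CPM in T1 and 250.2, 243 and 249.7 in T2, against 112, 110.1 and 105 in the euploid tetrad population. It had 295, 292 and 305 CPM in A1, 347, 345 and 352 in A2 and 316, 315 and 300.03 in A3, against 89.3, 86.1 and 86.3 in the euploid a-selection population. The log2 changes were 1.82 (T1), 1.18 (T2), 1.77 (A1), 1.99 (A2) and 1.83 (A3), with no overlap with the euploid libraries (adjusted p = 4.04e-24 for the tetrad and 2.33e-25 for the a-selection route by edgeR). At 354 and 362 CPM the haploid control was not told apart from A2 (adjusted p = 0.161 by edgeR, in a pair where 88.3% of all genes were called).

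T2 against T1 compares the aneuploid populations of the tetrad route. YDJ1 was the 1 gene higher in T2 (0.39 ± 0.0259), and the other 8 were lower (of all genes 69.1% were called, 35.9% higher and 33.2% lower). SSA4 fell most, at -2.34 ± 0.0274 (adjusted p = 5.88e-25 by edgeR). SSE2 fell by 1.36, FES1 by 0.63, SIS1 by 0.61 and SSA3 by 0.38, while SSE1 (-0.14) and SSA2 (-0.11) changed little. SSA1 (-0.80 ± 0.336, adjusted p = 0.0389) was not called by DESeq2 (adjusted p = 0.0509) nor without replicate 2 or 3 of T1 or replicate 2 of T2 (adjusted p = 0.107, 0.143 and 0.188 by edgeR). The members' median was -0.61, beside 0.012 over all genes.

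Among A1, A2 and A3, 8 of the 9 genes differed, SSA1 being the exception (adjusted p = 0.407 by edgeR), beside 73.8% of all genes. A3 had the highest SSA2, SSE1 and YDJ1 and the lowest SSA4 and SSE2 of the 3. A1 had the lowest SSA2, SSE1, YDJ1, SIS1 and FES1. YDJ1 had the smallest adjusted p of the 9 genes here (adjusted p = 2.46e-21 by edgeR).

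The difference between the routes (the tetrad change minus the a-selection change) was called for 8 of the 9 genes, beside 71.6% of all genes (33.1% higher and 38.6% lower). It was positive for SIS1 (0.53 ± 0.0228), YDJ1 (0.46 ± 0.0415) and SSA2 (0.16 ± 0.0349). It was negative for SSA3 (-0.70 ± 0.0348), SSE1 (-0.51 ± 0.0263), SSA4 (-0.40 ± 0.0325), SSE2 (-0.39 ± 0.0294) and FES1 (-0.36 ± 0.0337). For SSE2 this meant a deeper fall in the tetrad route (-0.84 against -0.45), and SSA3 was called lower only there (-0.70 against 0.0062). The differences of SSA4, SSE2 and FES1 depend on T2. Without it SSA4 and SSE2 turned round to 0.76 and 0.29 and FES1 was no longer called (-0.049, adjusted p = 0.249 by edgeR). Without A1 the small difference of SSA2 was -0.027 (adjusted p = 0.514), and with each chromosome centred on its median it was 0.012 (adjusted p = 0.775 by edgeR).

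The euploid populations were themselves far from the haploid control. In the euploid tetrad population 3 genes were higher and 5 lower than in the haploid control (90.7% of all genes were called, 47.1% higher and 43.6% lower), and the same held for the euploid a-selection population (89.5%, 45% and 44.4%). The higher genes were SSE2 (3.04 ± 0.0327 in the tetrad and 2.80 ± 0.0324 in the a-selection euploid population), SSA3 (2.03 and 0.94) and SSA4 (1.86 and 1.40), the copies known as stress-linked. YDJ1 was lower by most (-5.21 ± 0.0339 and -5.02 ± 0.0327), followed by SSA2 (-3.79 and -3.71), SSE1 (-2.12 and -2.86), SIS1 (-1.81 and -1.23) and FES1 (-1.72 and -2.04). Adjusted p-values of these 8 genes were at most 3.84e-17 by edgeR. The sum of SSA1 and SSA2 was at -0.56 ± 0.283 in the euploid tetrad population (adjusted p = 0.0649, not called) and at -0.97 ± 0.282 in the euploid a-selection population (adjusted p = 0.00274 by edgeR). SSA1 was called in neither, but without replicate 1 of the haploid control it was called higher in the euploid tetrad population (1.43, adjusted p = 0.00761 by edgeR). Both comparisons share the 2 haploid libraries.

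Set against the haploid control, 3 genes were higher and 5 lower in the tetrad aneuploids (88.4% of all genes were called, 44% higher and 44.3% lower) and in the a-selection aneuploids (89.3%, 44.5% and 44.8%). SSA4 was 2.73 in the tetrad and 2.67 in the a-selection aneuploids, against 1.86 and 1.40 in the euploid populations of these routes. The tetrad value averages T1 at 3.90 and T2 at 1.56, and T2 lay below the euploid tetrad population. YDJ1 was at -2.19 in the tetrad and -2.46 in the a-selection aneuploids, against -5.21 and -5.02 in the euploid populations. FES1 was at -0.22 and -0.17. Its direction was not stable: T1 alone was 0.10 above the haploid control, without T2 the tetrad value was 0.099 (adjusted p = 0.00381 by edgeR), and with no scaling factors the values were 0.31 in the tetrad and 0.33 in the a-selection route, where the median of all genes moved by 0.53 and 0.52. SSA2 summed with SSA1 was at -0.57 ± 0.248 in the tetrad aneuploids (adjusted p = 0.0362) and at -0.49 ± 0.236 in the a-selection aneuploids (adjusted p = 0.0576, not called, by edgeR). SSA1 was called in neither, but without replicate 1 of the haploid control it was called higher in both (1.24 and 1.36, adjusted p = 0.0142 and 0.00769 by edgeR), and without T2 in the tetrad aneuploids (0.85, adjusted p = 0.0330).

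The euploid a-selection population was also set against the euploid tetrad population, since every aneuploid change rests on 1 of them. SIS1 (0.58 ± 0.0193), YDJ1 (0.19 ± 0.038) and SSA2 (0.082 ± 0.0297) were higher in euploid a-selection, and SSA3 (-1.09 ± 0.0293), SSE1 (-0.74 ± 0.0224), SSA4 (-0.46 ± 0.0277), FES1 (-0.32 ± 0.0294) and SSE2 (-0.23 ± 0.0246) were lower (70.6% of all genes were called, 35.5% higher and 35.1% lower). The SSA2 libraries of the 2 populations overlapped, and its call (adjusted p = 0.0178) was lost without replicate 3 of euploid tetrad or replicate 1 of euploid a-selection (adjusted p = 0.154 and 0.115 by edgeR).

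With each population as a single unit (replicates summed, 7 populations, with route and ploidy as terms), 4 of the 9 genes were higher in aneuploids and none lower. They were YDJ1 (2.85 ± 0.428), FES1 (1.72 ± 0.216), SSE1 (1.49 ± 0.256) and SSA2 (1.38 ± 0.241), each with an adjusted p of 0.0355 by edgeR, and 25.2% of all genes were called (14.2% higher and 11% lower). SSA4 (1.31 ± 0.605) and SSE2 (-0.53 ± 0.369), which differ most between T1 and T2, were not. These calls lie near the threshold: leaving out T1, A2 or A3 left 0 of the 9 called and leaving out T2 left 1, while 4 to 6 had an unadjusted p under 0.05 in each of these fits. In the authors' deposited table of 1 comparison, which does not name its groups, the same 4 genes had an adjusted p under 0.05, with log2 fold changes of 2.68 ± 0.369 for YDJ1, 1.68 ± 0.225 for FES1, 1.43 ± 0.255 for SSE1 and 1.34 ± 0.247 for SSA2. The other 5 did not pass in the authors' deposited table, SSA4 at 1.15 ± 0.495 (adjusted p = 0.401) among them. It passed 222 of its 6316 genes. The authors' deposited test gives SSA2 a p-value of 5.50e-08 but an adjusted p of 0.0486, by an adjustment the headers do not name. Its 0.05 may therefore be another threshold than the Benjamini-Hochberg one used here. It belongs to the same series, so it is not an independent check.

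Genes of the other Hsp70 systems of the cell were followed as lists, whose counts stand beside 39.9% of all genes called higher and 44.8% lower in the tetrad route and 39.8% and 39% in the a-selection route. All 4 genes of the ribosome-bound system that receives new chains rose in both routes, with SSB1 at 3.95 ± 0.0345 in the tetrad and 1.99 ± 0.0277 in the a-selection route, the atypical Hsp70 SSZ1 at 2.76 and 2.60, and its J partner ZUO1 at 2.64 and 2.08. SSB2 (3.795 and 1.76) is a near-copy of SSB1, so that pair is uncertain. In the endoplasmic reticulum 6 of 7 genes rose and 1 fell in the tetrad route, and 5 rose and 1 fell in the a-selection route, with medians of 1.24 and 0.81. Among them the Hsp70 KAR2 was at 1.42 ± 0.0218 in the tetrad and 1.21 ± 0.0206 in the a-selection route, and its J partners SCJ1 (1.497 and 0.81), JEM1 (1.27 and 0.85) and SEC63 (1.24 and 0.97) rose as well.
Of 10 genes of the mitochondrial system 4 were called higher, near the share of all genes, and 2 lower in the tetrad route, and 6 higher and 3 lower in the a-selection route. Their medians were 0.031 and 0.077. Its Hsp70 SSC1 was at 0.63 ± 0.022 in the tetrad and 0.073 ± 0.0203 in the a-selection route, and the J protein MDJ1 at 0.63 and 0.12. Of 10 further J and BAG domain genes, 7 rose in each route, while 2 fell in the tetrad and 3 in the a-selection route, with medians of 0.18 and 0.21. JJJ1, a J protein of ribosome assembly, was at 2.01 and 0.78. XDJ1 was at 0.093 in the tetrad and -0.43 in the a-selection route.

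Genes of 2 stress programmes and of growth were measured beside the 9. A list of 17 other genes held folding genes known as Hsf1 targets and also HSF1, the gene of the factor itself. Of these 17, 11 rose and 5 fell in the tetrad route and 15 rose and 1 fell in the a-selection route. Their medians were 0.084 and 0.47. These counts stand beside the same shares of all genes (84.7% called in the tetrad and 78.8% in the a-selection route). BTN2, a sorting factor for misfolded proteins, was at 3.61 ± 0.0343 and 2.87 ± 0.0294, the cochaperone CNS1 at 3.22 and 2.76, and the small heat shock gene HSP26 at -2.60 and 0.15. In T1 13 of these 17 rose and 4 fell, where 38.2% of all genes were called higher and 43% lower, and in T2 8 rose and 8 fell, where 40.5% and 44.4% were. Of 20 Msn2 and Msn4 targets 19 fell in the tetrad route and 18 in the a-selection route (medians -1.01 and -0.49), among them HSP12, a membrane-associated stress protein (-1.57 and -0.90), and the catalase CTT1 (-1.41 and -1.53). In both euploid populations all 20 were above the haploid control, by medians of 5.51 (tetrad) and 4.90 (a-selection). Of all genes 47.1% and 45% were called higher there.
Ribosome assembly genes, which follow the growth rate, rose as a whole list of 20 in each of the 5 aneuploid populations. Their median log2 change was 3.801 (T1), 5.72 (T2), 2.44 (A1), 2.68 (A2) and 4.47 (A3), and the change of YDJ1 was 2.83, 3.22, 2.04, 2.32 and 3.33 in the same order. Both euploid populations lay below the haploid control in all 20, by medians of -7.65 (tetrad) and -6.27 (a-selection). Of all genes 43.6% and 44.4% were called lower there. The part of growth state in the changes of the 9 genes was not tested.

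The copy number of chromosomes was not measured here, so the shift of the other genes on each gene's own chromosome is given instead. The median log2 change of the other tested genes on these 6 chromosomes lay between -0.23 and 0.22 over the 5 populations, both extremes on chromosome I, which holds SSA1. On chromosome XIV, which holds YDJ1 and SIS1, it lay between -0.084 and -0.015. On chromosome V, which holds SSA4, it was 0.024 in T1 and -0.086 in T2.

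Over the 8 group means of log2 CPM, the 9 genes formed patterns that are given as descriptions, since all genes share the same libraries and scaling. YDJ1 correlated at 0.96 with SSE1 and 0.95 with SSA2, and SSA2 at 0.91 with SSE1. SSE2 ran against SSA2 (-0.89) and YDJ1 (-0.83). SSA4 and FES1 correlated at 0.30 over all 8 groups and 0.76 over the 7 without the haploid control, and SSA2 and SSA4 at -0.39 and 0.54, so these depend on that group. Among the 5293 other genes with an average log2 CPM of 3 or more, the ones most like YDJ1 were THR1 (0.998), SNU114 (0.996) and ZUO1 (0.995), and 16 genes reached 0.99. SSA2 was most like SER33 (0.997), SSE2 like PNC1 (0.994) and FES1 like RAD5 (0.987), ZPR1 (0.965) and BTN2 (0.951). SSE1 was most like PCC1 (0.976), SSA4 like UFD4 (0.973), SSA3 like MRP7 (0.977), SIS1 like TEF2 (0.967), which has a near-identical copy, and SSA1 like NAP1 (0.937).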

How the data were processed

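RNA of 23 libraries was sequenced, and the submitters' processing notes name the aligner HISAT2 2.0.5, the counter HTSeq 0.6.1p1, DESeq2 1.14.1 and the build R64, without saying how reads on either strand or in shared sequence were counted. The deposited table holds raw counts for 6596 genes. A second deposited table holds the authors' own comparison: a mean normalized signal, a log2 fold change with its error, a test score and p-values, as its file headers name them.
Counts were fitted with edgeR 4.0.16 (R 4.3.3): TMM scaling, a filter on low counts over the 8 groups, 1 coefficient per group, 15 residual degrees of freedom and the quasi-likelihood test, with Benjamini-Hochberg adjustment over 6111 genes and a threshold of 0.05. The fit was tested on simulated data. With the 7 populations as units, 4 residual degrees of freedom remained. Alternatives were other scalings, filters and designs, DESeq2 1.42.0, and each library or population left out.
The 9 genes and the other lists were chosen with earlier results of these data known. From each other list up to 4 genes with the largest change past the threshold in either route and an average log2 CPM of 3 or more are named, and for likeness the 3 most correlated genes per member, of which some are given. A planned p for the Ssa shares is not given, since they are scores over the members. Sequences came from RefSeq; the genes of the count table matched its table for 5914 of 6596. Motifs were searched for 8 of the 9 genes, and the DNA ahead of SSE1 is not reported here. Amino acids were not used here. Each group had only 2 or 3 libraries. The spread behind the standard errors was estimated over all 23 libraries together, so it is not that of single groups.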

Additional observations from a re-analysis of the deposited data

Results flagged for a closer look

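Changes relative to euploid cells were unequal in the 2 routes for 8 of the 9 genes, by edgeR's test of the difference itself (tetrad change minus a-selection change, log2). The values were 0.53 for SIS1, 0.46 for YDJ1, 0.16 for SSA2, -0.36 for FES1, -0.39 for SSE2, -0.40 for SSA4, -0.51 for SSE1 and -0.70 for SSA3. Of all tested genes 71.6% differed in this way. Each route has 1 euploid population, and the euploid a-selection level minus the euploid tetrad level is itself a term of the route difference. For all 8 genes this term had the sign of the route difference, which is partly built in. The term was 0.58 for SIS1, 0.19 for YDJ1, 0.082 for SSA2 and -0.32 for FES1. It was -0.23 for SSE2, -0.46 for SSA4, -0.74 for SSE1 and -1.09 for SSA3. How far the euploid populations account for the values was not tested.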

How the results depend on the processing

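Of the counts of called genes and members, 1504 values under alternatives stayed within 1.5 times the reported one and 23 did not. Members called lower in A3 numbered 2 with RLE scaling, with upper-quartile scaling and without A3 replicate 2, where SSA3 joined SSE2. With no scaling factors, which moved the median of all genes by up to 0.53, members higher than the haploid control numbered 5 for both routes, and members lower numbered 1 in T1 and 5 in T2 against T1. Without T2, 5 members were higher and 2 lower in the route difference, and 5 were higher in tetrad aneuploids than in the haploid control. Without A3, 2030 genes differed between A1 and A2.
With populations as units, members called higher numbered 0 at an adjusted p under 0.01, with haploid cells counted as a further euploid population, and without A2, A3 or T1, and 1 without T2. All genes called by edgeR then numbered 1 at 0.01, 0 with the haploid control, 0 without A2, 1 without A3, and 3 without T1 or T2, while 2870, 244, 2470, 2380, 2608 and 2459 had an unadjusted p under 0.05. No other tool was run on this fit.
Signs of single genes turned in these cases. SSA1 was 0.14 (no scaling), 0.089 (each chromosome centred) and 0.21 (without T2) in the tetrad route, -0.041 (centred), -0.14 and -0.24 (without euploid a-selection replicate 3 or A1 replicate 2) in A1, -0.17 (centred) for euploid a-selection against haploid, where leaving out single libraries gave -0.30 (without haploid replicate 2) to 0.98, -0.045 (without haploid replicate 2) to 1.24 for tetrad aneuploids against haploid, and -0.025 (without T1) over populations. SSA3 was -0.0079 (RLE), -0.00052 (only the groups compared), -0.0099 (without euploid a-selection replicate 2), -0.042 (without A2) and -0.0087 (DESeq2) in the a-selection route, 0.0059 (upper quartile), 0.034 (no scaling) and 0.021 (centred) in A1, and 0.0070 (no scaling) in A3. With no scaling SSE2 was 0.11 in T1 and 0.0016 between the euploid populations, SSA4 0.082 in T2, and FES1 0.31 and 0.33 for tetrad and a-selection aneuploids against haploid. Without T2 FES1 was 0.099 in that tetrad comparison, and SSE2 and SSA4 were 0.29 and 0.76 in the route difference. SSA4 was -0.31 in the tetrad route without T1, and SSA2 -0.027 in the route difference without A1. With haploid cells counted as euploid SSA2, SIS1 and YDJ1 were -0.99, -0.18 and -0.77. Summed with its paralogue, SSA2 was -0.0060, SSA3 0.46 and SSE2 0.24 in the tetrad route and SSE2 0.54 in the a-selection route, since the other copy holds most counts or moved more. The cause of the others was not tested.
With the replicate number as a block, 4411 genes were called in A1, 5171 in the tetrad and 4807 in the a-selection route, and SSA1 in T2 against T1 was not called (adjusted p = 0.0553 by edgeR). Same-numbered libraries of different groups correlated between -0.170 and 0.263, over 0.1 in 9 of 77 pairs. Libraries of different numbers correlated between -0.263 and 0.246. No pairing by number was seen in these values, but they cannot tell whether same-numbered libraries were grown or prepared together.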
